A study of Homo sapiens with 2 samples.

Results

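AHNAK encodes a giant scaffold protein, and nearly all of its coding sequence sits in a single exon. The deposited list of ADAR1 contacts in U87MG cells holds 29 clusters on the AHNAK strand within the gene, out of 23782 clusters in all. A cluster is a stretch of RNA under which the authors grouped the reads of a crosslinking, immunoprecipitation and sequencing (CLIP-seq) experiment. Members were the minus-strand clusters of chromosome 11 with a midpoint between 62201000 and 62314400 in hg19, the span given for AHNAK. The locus was picked because clusters crowd there, so the number and closeness of the clusters describe how it was chosen and are given with no test.

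U87MG is an established human glioblastoma (astrocytoma) line, and each of the 2 libraries, labelled AB1 and AB2 for the antibody, came from such cells, irradiated with ultraviolet light on ice to link protein to RNA, with no other treatment in the labels. Per the labels, both libraries were made with a mouse monoclonal antibody against ADAR1, and both carry the same catalogue entry, although the study's design text speaks of different antibodies. No control library without the antibody was used here. The authors deposited 1 list for both libraries, with no read count, score or p-value per cluster. The depth behind a cluster is therefore unknown, AB1 cannot be set against AB2, and all values below are single values without replicates.

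ADAR1 is an RNA editing enzyme that turns adenosines in double-stranded RNA into inosines, and most of its known sites in human RNA lie in inverted pairs of Alu repeats. AHNAK, also called desmoyokin, is a scaffold below the plasma membrane that binds annexin A2 and its partner S100A10 and is linked to membrane repair and calcium channel function. Its protein has a short amino-terminal part, a long central part built from many similar repeat units, and a carboxy-terminal part. Because these protein repeats are encoded in one exon, the mRNA repeats along its length as well.

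The repeat was measured in the long AHNAK transcript of GENCODE release 29 (GRCh38), where the giant exon has 18170 bases, of which 17328 are coding and 842 are untranslated. This is the third longest coding exon among the 85 genes with one of 5000 bases or more. When the coding part was set against itself, the shift with the most identical bases was 384, or 128 codons, at 53.0% identity. The median over shifts of 200 to 600 bases was 24.9%, and the next best shift in that range, 222 bases, reached 37.1%. The lines that follow give the same 120-base part of 3 successive units, because it is the codon-aligned stretch in which 3 units in a row were most alike. Capitals mark the 13 positions at which the 3 units are not all the same. In GRCh38 they lie on the minus strand at chr11:62522207-62522326, chr11:62521823-62521942 and chr11:62521439-62521558, all in the coding part of the giant exon. These positions belong to another build than the clusters and place no cluster on a unit.
unit 1: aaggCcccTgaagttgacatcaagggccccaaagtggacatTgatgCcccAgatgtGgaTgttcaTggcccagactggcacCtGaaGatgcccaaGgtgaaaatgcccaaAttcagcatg
unit 2: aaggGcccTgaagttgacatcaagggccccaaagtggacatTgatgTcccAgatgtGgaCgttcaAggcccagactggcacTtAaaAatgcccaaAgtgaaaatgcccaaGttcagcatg
unit 3: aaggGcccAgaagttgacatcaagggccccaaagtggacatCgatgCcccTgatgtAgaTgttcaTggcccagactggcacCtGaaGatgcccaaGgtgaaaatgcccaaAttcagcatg

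Units 1 and 2 shared 92.5% of these bases, units 2 and 3 shared 90%, and units 1 and 3 shared 95.8%. Elsewhere the likeness was looser: of all windows of 384 bases, 25.8% matched the window 1 repeat length further on at 80% or more of their bases, and 42.8% did so at 60% or more. Words of 30 bases occurred more than once within the coding exon for 21.3% of its positions, and words of 50 bases for 9.36%. Among the 84 other genes with a coding exon of 5000 bases or more, 9 had a higher share of repeated 30-base words, and their median share was 0%. A read of such a word has more than 1 matching place in the exon. How the authors treated such reads is not given in the sources used here, and their part in the clusters was not tested.

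In base composition the exon lay near the middle of other long coding exons. Its GC content was 49.0%, with 41 of the 84 other long coding exons higher and 43 lower, and adenosine, the base that ADAR1 converts, made up 29.6% of its bases against a median of 29.7% in the others. Predicted folding was computed with RNAfold: over 86 successive windows of 200 bases the minimum free energy had a median of -54.3 kcal/mol, with a range of -87.4 to -40.2. The medians of the other long coding exons ran from -90.2 to -25.1 kcal/mol, and 27 of the 84 were lower than that of AHNAK. These sequence measures describe the whole exon and were not set against single clusters.

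All 29 clusters had their midpoint in the span given for the giant coding exon, about 62283000 to 62301500, and 0 lay in the other 94900 bases of the gene span. This span has 18501 bases, 331 more than the exon has in GENCODE, so its edges are approximate. The plus strand of the gene span also held 0 clusters. The list gives no depth, so it does not show whether RNA outside the exon was covered by reads that formed no cluster.

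All 29 clusters were of the non-Alu class and 0 were Alu, whereas Alu clusters made up 84.9% of the whole list. The exact 95% interval for 0 of 29 reaches 11.9%, and it covers counting error only. The 29 clusters lie in the same exon span and are not independent in class, so this interval understates the error. Whether that span holds any Alu repeat was not examined. The AHNAK clusters made up 0.810% of all 3582 non-Alu clusters and 1.25% of the bases that class covers. On chromosome 11 they made up 29 of 175 non-Alu clusters, or 16.6%.

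The clusters covered 8445 bases, or 45.6% of the exon span. The first lay at 62285661 to 62285892 and the last at 62301236 to 62301366, and between these outer edges 53.8% of the bases were covered. AHNAK is read from the minus strand, so the highest positions are nearest the 5′ end of the exon and the lowest nearest its 3′ end. The 3′ end held the longest empty stretch, 2661 bases from the lower edge of the span to the first cluster. That stretch is longer than the 842 untranslated bases at the 3′ end of the exon in GENCODE. If hg19 has the same number of them, each cluster lies above the 3′ untranslated part, as long as the lower edge given for the exon is off by no more than 1819 bases.

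At the 5′ end of the exon, the last cluster ended 134 bases below the upper edge of the span. This cluster, of 131 bases, is shorter than the 331 bases by which the span exceeds the exon, so whether it lies in the exon, across its edge or wholly in the intron cannot be told from the approximate span.

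**Figure D1:**
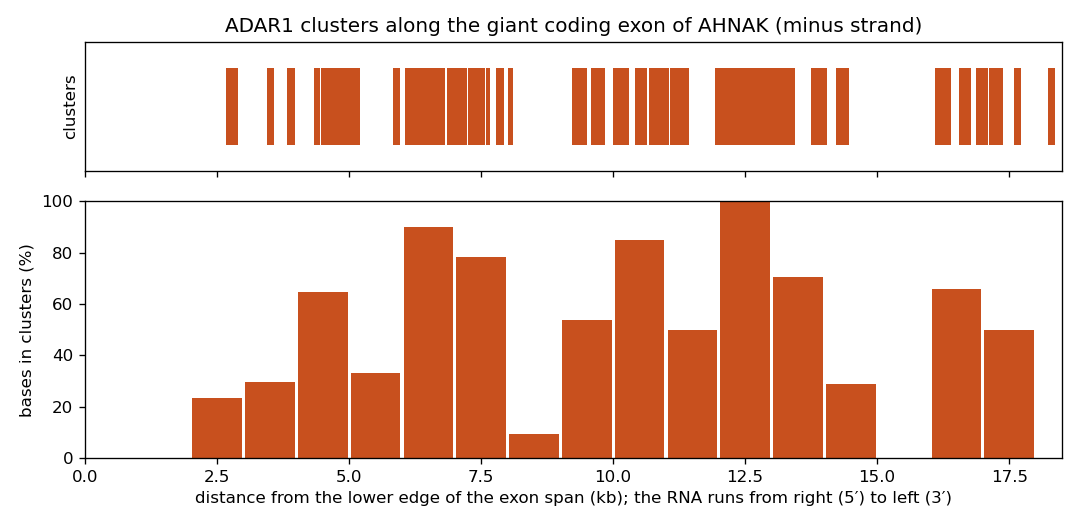
Position of the 29 AHNAK clusters (top, bars drawn to scale) and the share of bases in clusters in each of the 18 whole kilobases (bottom, %), against the distance in kb from the lower edge of the exon span, with the 5′ end of the RNA on the right. The clusters fall into 3 stretches, 3 kilobases are empty, and 1 is covered at 100%.

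Cover was greatest in the middle of the exon and least at its 3′ end. With the span cut into 4 equal parts of about 4625 bases, the part at the 5′ end held 8 clusters over 36.8% of its bases. The next part held 7 clusters over 74.4%, the one after it 9 clusters over 54.1%, and the part at the 3′ end 5 clusters over 17.4%. The part with the highest cover held the longest cluster, and the part with the most clusters had less cover. By whole kilobases, 8 of 18 were more than 50% covered and 3 held no covered base.

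Gaps of 1114 and 1636 bases divided the clusters into 3 stretches. The stretch nearest the 3′ end held 14 clusters over 5450 bases, from 62285661 to 62291110, and 60.2% of it was covered. The middle stretch held 9 clusters over 5241 bases, from 62292225 to 62297465, with 74.0% covered. The stretch nearest the 5′ end held 6 clusters over 2265 bases, from 62299102 to 62301366, with 56.9% covered.

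The 3′ stretch began loosely and became dense towards its middle. After the cluster at 62285661 came single clusters at 62286441 to 62286579 and 62286827 to 62286983, separated by gaps of 247 to 548 bases. Clusters at 62287332 to 62287441, 62287460 to 62287639 and 62287645 to 62288205 then followed with gaps of only 18 and 5 bases. After a short cluster at 62288840 to 62288964 came 5 clusters in a row, from 62289055 to 62290658, in which no gap exceeded 43 bases. These 5 began at 62289055, 62289622, 62289860, 62290243 and 62290591, and they covered 94.6% of the 1604 bases between their outer edges. The stretch closed with clusters at 62290779 to 62290940 and 62291016 to 62291110.

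The middle stretch held the longest cluster of the whole list. Its first 6 clusters, starting at 62292225, 62292589, 62292993, 62293415, 62293684 and 62294077, were separated by 155 bases or less and ended at 62294443. The giant cluster of 1509 bases, from 62294933 to 62296441, followed after a gap of 489 bases. Clusters at 62296738 to 62297044 and 62297223 to 62297465 completed it. Of the 6 clusters in the 5′ stretch, the first 4 started at 62299102, 62299555, 62299867 and 62300111 and the 2 nearest the 5′ end at 62300599 and 62301236. Gaps in the 5′ stretch ran from 11 bases, between 62300099 and 62300111, to 504 bases before the last cluster.

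AHNAK clusters were longer than other non-Alu clusters at the upper end and alike at the lower end. Their median length was 234 bases (lowest 68, quartiles 157 and 307, highest 1509; n = 29), with an exact 95% interval for the median of 162 to 306. The other 3553 non-Alu clusters had a median of 191 bases (lowest 14, quartiles 141 and 222, highest 1122). Lengths above 250 bases occurred in 12 of 29 AHNAK clusters, 41.4%, against 9.74% in the whole non-Alu class and 9.48% in its other members. Per the labels' protocols, the amplified products were selected at 75 to 250 bases on a gel. A cluster over 250 bases is therefore longer than any single selected product and spans reads at more than 1 place.

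At a length over 500 bases, AHNAK had 3 of 29 clusters, or 10.3% (exact 95% interval 2.19 to 27.4%), against 0.642% in the whole non-Alu class. These 3 were 13.0% of the 23 non-Alu clusters of that length. At the short end, 2 of 29 AHNAK clusters had 100 bases or fewer, beside 9.55% of the whole non-Alu class. Neighbouring clusters share an mRNA and are not independent, so these intervals understate the error. The locus was picked for crowding, and whether cluster length is free of that choice was not tested.

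The 5 longest clusters had 1509, 563, 561, 382 and 367 bases. The cluster of 563 bases lay at 62289055 to 62289617 and that of 561 bases at 62287645 to 62288205, both in the 3′ stretch, and 17 other non-Alu clusters of the list were as long or longer. The cluster of 382 bases lay at 62293684 to 62294065 and that of 367 bases at 62294077 to 62294443, so they were adjacent in the middle stretch, 11 bases apart. Each of the 5 exceeded at least 98.0% of the other non-Alu clusters in length.

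The 3 shortest had 68, 95 and 110 bases. The shortest, at 62290591 to 62290658, stood 19 bases from a neighbour of 329 bases. The clusters of 95 bases, at 62291016, and of 110 bases, at 62287332, had their closest neighbour 75 and 18 bases away. Each of the 3 shortest clusters lay in the 3′ stretch, as did 2 of the 3 longest.

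**Figure D2:**
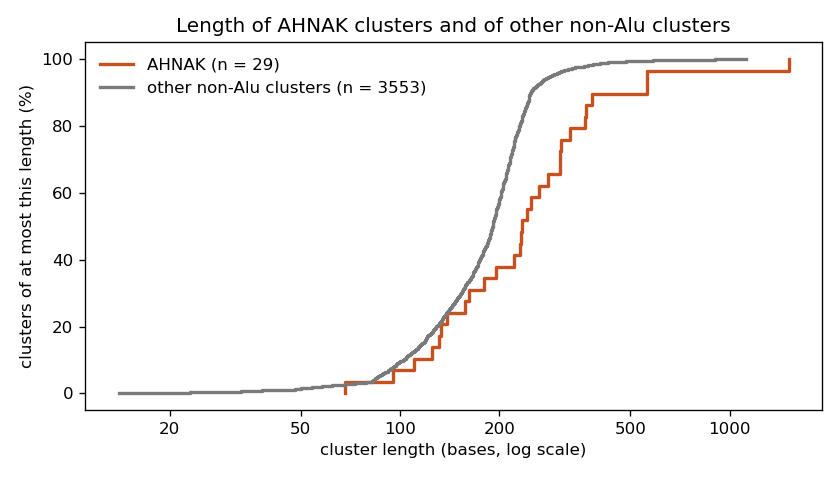
Cumulative share of clusters (%) by length in bases (log scale) for the 29 AHNAK clusters and the 3553 other non-Alu clusters. The curves stay fairly close up to about 162 bases and then part, and the AHNAK curve ends at 1509 bases.

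Many AHNAK clusters all but touched. The 28 gaps had a median of 118 bases (exact 95% interval for the median 43 to 247), with a range of 4 to 1636. They follow each other along the same exon span and are not independent, so the interval understates the error. After clusters within 50 bases were merged, the median was 224 bases over 19 gaps. All 29 clusters had a same-strand non-Alu neighbour within 1000 bases, beside 15.2% of the whole non-Alu class, which follows from how the locus was chosen. For 13 of 29, or 44.8%, a neighbour lay within 50 bases, beside 2.32% of the class. Gap lengths among close pairs are also bound up with that choice, since the locus was picked for crowding, and are given as values only. Of the 26 AHNAK gaps of up to 1000 bases, 7 were 20 bases or less (26.9%). Of the 302 such gaps between other non-Alu clusters, 15 were (4.97%). The median was 103 bases for the 26 AHNAK gaps and 271 bases for the 302 others. Without gaps of 50 bases or less, it was 178 bases over 17 AHNAK gaps and 355 bases over 265 others.

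The smallest gaps, of 4, 5, 11 and 11 bases, are far below the length of a selected product. Where 2 clusters lie 4 bases apart, the division between them depends on the rule the authors used to end a cluster, which is not given in the sources used here. Merging clusters within 50 bases turned the 29 clusters into 20 blocks. Of these, 16 were single clusters, and 4 joined 13 clusters into blocks of 508 to 1604 bases.

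**Figure D3:**
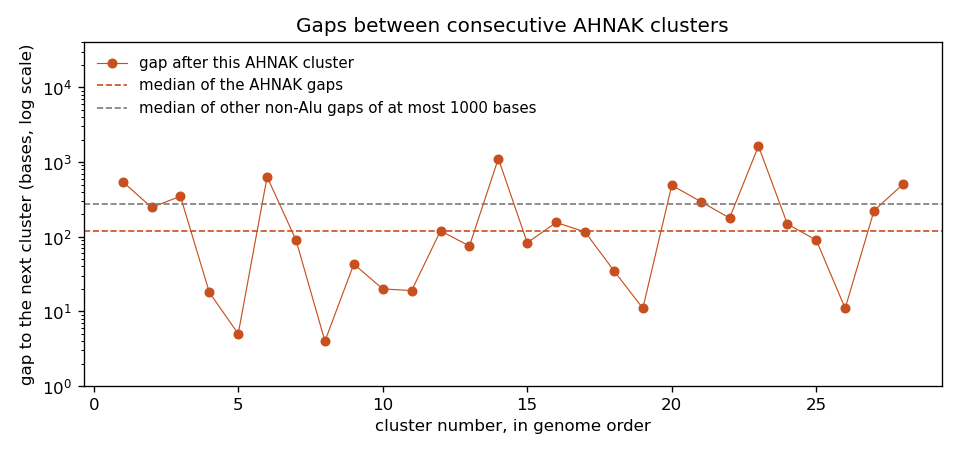
Gap in bases (log scale) from each AHNAK cluster to the next, in genome order from the 3′ end of the exon, with dashed lines for the median AHNAK gap of 118 bases and the median of 271 bases for the 302 other non-Alu gaps of at most 1000 bases. The highest points, 1114 and 1636 bases, divide the 3 stretches.

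The repeat length of the exon was then set beside the spacing of the clusters, to describe whether clusters recur at that distance. The start of a cluster here is its lower position, which is its 3′ edge in the RNA. Distances between consecutive starts had a median of 398.5 bases. They ran from 128 to 1879 bases (n = 28). Of the 28 distances, 5 were within 25 bases of 384, namely 386, 383, 364, 404 and 393. Over all 401 whole numbers from 200 to 600, 384 included, this count ran from 0 to 5 with a median of 2.

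A phase concentration was computed as the length of the mean vector of the positions taken modulo a period, where 0 is an even spread and 1 is perfect recurrence. At the repeat length of 384 bases it was 0.395 for midpoints, which ranked 4 among the 401 periods from 200 to 600. The highest value for midpoints, 0.417, was at 354 bases. For starts it was 0.469, rank 3, with the highest value, 0.481, at a period of 383 bases. For ends it was 0.341, rank 18, with the highest value, 0.451, at 328 bases. Medians over all 401 periods were 0.162 for midpoints, 0.132 for starts and 0.157 for ends. Neighbouring periods had similar values, such as 0.396 at 383 bases and 0.386 at 385 bases for midpoints. The 401 periods are therefore not independent, and a rank among them counts neighbours within the same peak.

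In plainer terms, with start positions taken modulo 384, 20 of the 29 starts, or 69.0%, fell in the fullest 128 of the 384 values. For the same fraction of other periods the count ran from 12 to 20 with a median of 14. The fullest part was chosen from the same starts, so it is a description only. A value modulo 384 is not a place within a repeat unit, since no cluster was placed on a unit and the likeness at this shift does not hold along the whole exon. Clusters of at most the median member length did not show the peak: their concentration at 384 was 0.255, rank 134, over 15 clusters. The longest cluster, at 1509 bases, spanned 3.93 repeat lengths. Only 3 of the 29 clusters exceeded 1 repeat length, the same 3 that exceeded 500 bases.

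**Figure D4:**
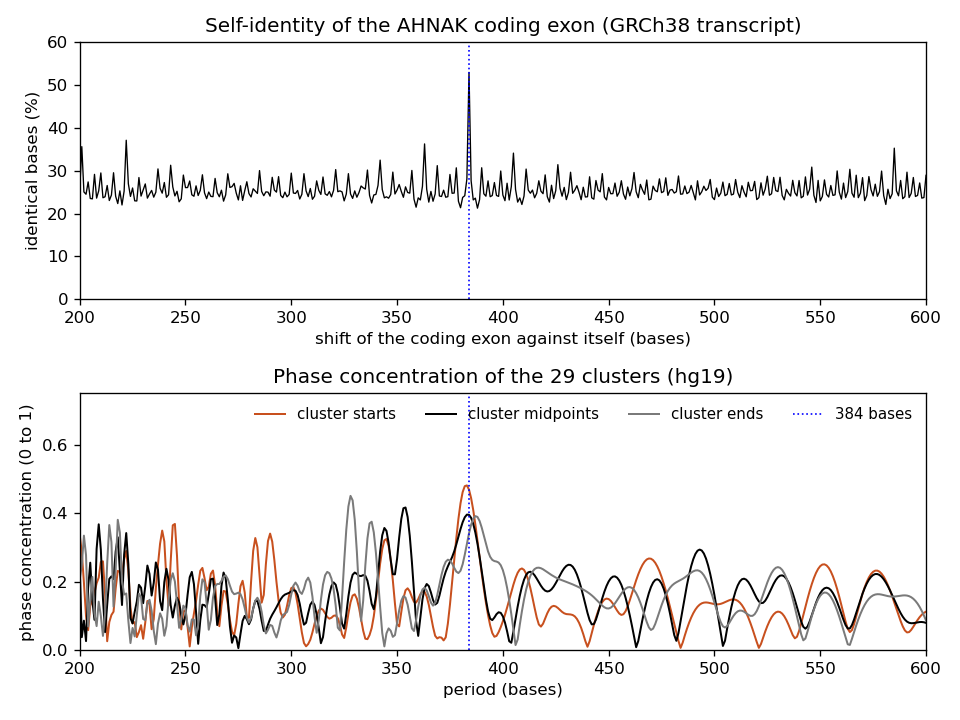
Top, identical bases (%) when the AHNAK coding exon of the GRCh38 transcript is shifted against itself by 200 to 600 bases; bottom, phase concentration (0 to 1) of the starts, midpoints and ends of the 29 hg19 clusters at periods of 200 to 600 bases, with a dotted line at 384 bases. The sequence has a single high peak at 384 bases. The starts are highest at 383 bases, the midpoints at 354 bases and the ends at 328 bases.

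The regions most like AHNAK were sought as runs of same-strand clusters with gaps of at most 1000 bases. By number of clusters, the AHNAK stretches of 14 and 9 ranked 1 and 2 among the 22917 runs of the list, single clusters included, and the stretch of 6 tied with 3 runs elsewhere, behind a run of 8. The longest run elsewhere held 8 clusters, on the plus strand of chromosome 4 from 189424408 to 189428670, and 40.2% of it was covered. Runs of 6 clusters lay on chromosome 8 (minus strand, 144991782 to 144996039, 40.3% covered), chromosome 19 (plus strand, 3464605 to 3467809, 38.2%) and chromosome 15 (plus strand, 43813583 to 43817271, 29.7%). A minus-strand run of 5 clusters on chromosome 5, between 69783722 and 69786559, was covered at 32.9%, and it was taken from 3 runs of 5 because it covered the most bases. All clusters in these 5 runs were non-Alu, as in AHNAK. In each of the 3 AHNAK stretches the covered share, 56.9 to 74.0%, was above that of these 5 runs, 29.7 to 40.3%. This did not hold at shorter gaps. At up to 500 bases, AHNAK runs of several clusters were covered at 65.0 to 83.7% and the next 5 runs at 61.0 to 77.4%. At up to 200 bases the shares were 75.5 to 97.4% and 69.0 to 88.1%. The 88.1% was that of a plus-strand run of 3 Alu clusters on chromosome 15, whereas the other runs compared at this limit were non-Alu. Genes were not assigned to the other runs, since no hg19 annotation was used here.

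**Figure D5:**
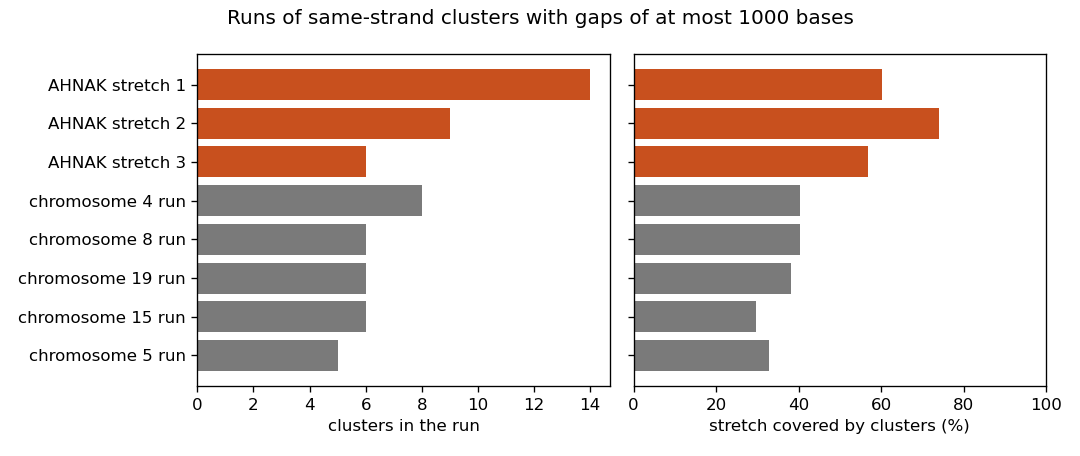
Clusters per run (left) and share of the run covered by clusters (right, %) for the 3 AHNAK stretches, numbered from the 3′ end, and the 5 other runs with the most clusters, at gaps of at most 1000 bases. AHNAK stretches hold 14, 9 and 6 clusters and the other runs hold 5 to 8.

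When gaps of up to 2000 bases were allowed, the 29 AHNAK clusters formed a single run of 15706 bases. The next run then held 12 clusters over 10261 bases on chromosome 15, with 29.5% covered against 53.8% in AHNAK. Runs of 8 clusters followed on chromosome 8 (minus strand, 34.2% covered) and chromosome 4 (plus strand, 40.2%). A further minus-strand run of 8 clusters on chromosome 14, between 105411120 and 105419241, was spread more thinly, with 18.9% covered.

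Below the exon the nearest cluster of any kind was an Alu cluster on the plus strand, at 62187821 to 62187929, 97.7 kb from the first AHNAK cluster and outside the gene span. Above it the nearest was an Alu cluster on the minus strand, at 62386445 to 62386636, 85.1 kb from the last. The nearest other non-Alu clusters were 552.7 kb below and 273.5 kb above. Within 500 kb of the gene span lay 12 other clusters, 10 of them Alu, and within 1000 kb there were 20, of which 16 were Alu and 4 non-Alu. The AHNAK exon span thus held more clusters than the 1000 kb on either side of the gene together.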

How the data were processed

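The authors deposited 1 list of clusters for both libraries, with chromosome, start, end, class and strand. Per the submitters' processing notes, reads were handled with cutadapt 1.1 and Novoalign 2.08.22 on hg19. The cluster caller, its thresholds, the pooling of the libraries and the rule for the Alu class are not stated in the labels. Those unstated steps set how long clusters are and how far apart. Start positions were taken to count from 0, the BED convention, and 1 was added before printing; no header states this, so starts and lengths may be off by 1 base.

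AHNAK, its span, the exon span and the comparisons were chosen with earlier results of these data known, so no test was made. Values were computed with Python 3.11.15, numpy 2.4.6, pandas 2.3.3, scipy 1.17.1 and RNAfold 2.7.2. The procedures were checked on simulated positions. The planned protein table was replaced by the transcript sequence of GENCODE release 29 (GRCh38), used for lengths and repeats only, never for hg19 positions. Clusters described singly were the 5 longest, the 3 shortest, the first and the last, and the runs most like AHNAK were the 5 with the most clusters, with ties broken by bases covered. The exact intervals cover counting error only.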

Additional observations from a re-analysis of the deposited data

How the results depend on the processing

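Of 25 alternative values, 11 stayed within the range set for them: 1.5 times for a count, or the exact interval of a median. The other 14 moved. They were the number of clusters at or above the median length, and every value for covered share, largest run and phase concentration. No range is given here for phase concentration, so moved says there only that the value differed from the 0.395 of midpoints. Membership by any overlap and the use of both strands left 29 clusters, and moving the exon edges by 500 bases left 28 or 29 in its span. Keeping clusters at or above the median length of the whole list left 19. The covered share of the exon, set against an interval over bases that is too narrow for linked bases, was 38.6% with that length filter, 46.5% after merging within 50 bases, 47.5% in the narrowed span, 43.3% in the widened span and 37.5% without the longest cluster. The largest AHNAK run held 8, 9 and 29 clusters at gaps of up to 200, 500 and 2000 bases, by construction, and was the largest run of the list at each. Phase concentration at 384 bases was 0.469 for starts, 0.341 for ends, 0.255 for clusters of at most the median member length, 0.601 with the length filter (rank 5 of 401 periods, 19 clusters) and 0.419 after merging (rank 15, 20 blocks); the cause was not tested. No paired analysis was possible because the list does not separate the 2 libraries, and for the same reason neither could be left out.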
